A study of Mus musculus with 13 samples.

Results

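Transcripts of 7 epithelial genes were followed in the right brain hemisphere of 13 mice at postnatal day 11: the keratins Krt7, Krt8, Krt18 and Krt19, the mucin Muc1 and the adhesion molecules Epcam and Cdh1. They were listed by name as markers of simple epithelia and make up 7 of the 48795 genes in the count table. All mice had a C57BL/6J background. The nlsYAP5SA group (NexCre +/- YAP5SAnls +/-, 5 mice) carried a nuclear, constitutively active YAP1 transgene switched on in the lineage of the NEX/NeuroD6-Cre driver, that is, in neural precursors and the pyramidal neurons they form. The control group (NexCre -/- YAP5SAnls +/-, 5 mice) consisted of littermates that carried the same transgene without Cre, and the C57BL/6J group (WT, 3 mice) consisted of age-matched mice from other litters. Olfactory bulb and cerebellum had been removed, so each library is a whole-hemisphere mixture in which the cells that express Cre are a part. In such bulk samples, more cells of a type and more RNA per cell cannot be told apart.

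Keratins are the intermediate filament proteins of epithelial cells, and every filament is built from pairs of a type I and a type II chain. Simple, single-layered epithelia use the type II chains keratin 8 and keratin 7 with the type I chains keratin 18 and keratin 19, whereas skin uses other pairs. Mucin 1, the epithelial membrane antigen, coats the luminal surface, EpCAM is an adhesion molecule of the lateral membrane, and E-cadherin, the product of Cdh1, is the core of epithelial adherens junctions. Most brain cells use other filament proteins, such as GFAP in astrocytes and neurofilaments in neurons, while the choroid plexus and the ependymal lining of the ventricles are the epithelial layers of the brain. The study reports intense MUC1 staining in tumours of nlsYAP5SA mice. For cytokeratin 18 it reports focal staining in tumours of mice with LATS1 and LATS2 deleted in the same lineage, a model not sequenced here. This raises the question of whether the transcripts of these and related markers differed between the hemispheres.

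The 4 keratins rose in nlsYAP5SA hemispheres, and Muc1, Epcam and Cdh1 were not called. Of the 7 genes, 4 were called higher against control at an adjusted p of 0.05 or less, all of them keratins, and 0 were called lower. Of all 16315 genes tested in that comparison, 7.36% were called higher and 10.8% were called in either direction. In each of these 4 keratins every nlsYAP5SA mouse lay above every control mouse, as did 6.04% of all genes tested. Krt7, Krt8 and Krt18 passed the filter on low counts only through the nlsYAP5SA mice, so neither count is support for a difference. The rises ranged from a log2 fold change of 1.96 for Krt19 to 4.50 for Krt7. Their means in nlsYAP5SA lay between 0.731 and 3.27 CPM, that is, counts scaled to a common library size of 1e6 with TMM factors. Library totals ran from 20871566 to 25524349 counts, so the values of these genes rest on few reads, and the counts are given for every mouse.

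Neurod6, whose locus carries the Cre insertion, fell from 97.7 ± 7.58 CPM (SD, n = 5) in control to 49.0 ± 7.21 (n = 5) in nlsYAP5SA, a log2 fold change of -0.98 (edgeR, adjusted p = 2.65e-05), and stood at 94.1 ± 7.25 (n = 3) in C57BL/6J. Yap1 itself was at 20.8 ± 0.993 CPM in control and 24.1 ± 1.51 in nlsYAP5SA (log2 fold change 0.23, adjusted p = 0.0361), a call that was lost without any of control 1, 2, 3 and 4 or nlsYAP5SA 1, 2, 4 and 5 (adjusted p up to 0.0846). The Yap1 call was also lost with library size alone (0.0719), with no filter (0.0859) and with a choroid plexus (0.169) or Y-linked covariate (0.367). The hemispheres differed in choroid plexus transcripts within every group. Ttr, the transthyretin gene, whose product that epithelium secretes, had 5307, 21, 30, 51 and 2732 counts in control 1 to 5, 5712, 5855, 3177, 18 and 1179 in nlsYAP5SA 1 to 5, and 34, 3287 and 5930 in C57BL/6J 1 to 3. The summed counts of 4 Y-linked genes were 2225 or more in all 5 control mice, in 2 of the 5 nlsYAP5SA mice (3 and 4) and in 2 of the 3 C57BL/6J mice (1 and 3), and 2.02 or less in the other mice. A choroid plexus score and the Y-linked level were each used as a covariate in alternative fits.

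Krt7, the type II keratin of ducts and other glandular linings (chromosome 15, 101411043 to 101430313, plus strand, GRCm38), had few counts without Cre. It had 1, 2, 3, 5 and 2 counts in control 1 to 5 and 77, 63, 21, 48 and 77 counts in nlsYAP5SA 1 to 5. It had 1, 1 and 7 counts in C57BL/6J 1 to 3. Every nlsYAP5SA mouse lay above every mouse of the other groups, and the lowest of them, mouse 3, had 3 times the count of the highest C57BL/6J mouse. The mean rose from 0.110 ± 0.0633 CPM in control to 2.60 ± 1.11 in nlsYAP5SA (SD, n = 5 each). The log2 fold change was 4.50 with a standard error of 0.46 (edgeR's quasi-likelihood test, adjusted p = 5.48e-05). An exact two-sided permutation test of the mean CPM gave p = 0.00794, the smallest that 5 against 5 mice allow. With the Y-linked level as a covariate the log2 fold change was 3.75 (adjusted p = 0.000469). Within the nlsYAP5SA group, the 3 mice with almost no Y-linked counts had 2.95 to 3.59 CPM and the others 0.904 and 2.09. C57BL/6J mouse 2, which also had no Y-linked counts, had 0.0476 CPM.

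Krt8, the type II partner of keratin 18 and the first keratin of the early embryo (chromosome 15, 101996698 to 102004482, minus strand), rose as well, on the fewest counts of the 4 keratins. It had 8, 4.02, 1, 1 and 3 estimated counts in control 1 to 5 and 20, 19, 15, 11 and 16 in nlsYAP5SA 1 to 5. In C57BL/6J 1 to 3 it had 0, 9 and 13 counts, and the count of 0 allows up to 3 counts, or 0.134 CPM, counting error only. The nlsYAP5SA mice lay above all controls, but the highest C57BL/6J mouse (0.527 CPM) exceeded nlsYAP5SA mouse 4 (0.479 CPM). Against control the mean rose from 0.143 ± 0.118 to 0.731 ± 0.176 CPM (n = 5 each), a log2 fold change of 2.31 with a standard error of 0.42 (adjusted p = 0.00342, edgeR's quasi-likelihood test). The log2 fold change was 1.797 with the choroid plexus score as a covariate (adjusted p = 0.0216). It was 1.94 with the Y-linked level, where the call was lost (adjusted p = 0.0751). Within the nlsYAP5SA group, the 3 mice with almost no Y-linked counts had 0.745 to 0.897 CPM of Krt8 and the others 0.479 and 0.646.

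Krt18, the type I chain that pairs with keratin 8 (chromosome 15, 102028180 to 102032027, plus strand), rose by a fold between those of Krt7 and Krt8. Control 1 to 5 held 17, 9, 4, 8 and 14 counts and nlsYAP5SA 1 to 5 held 94, 62, 28, 79 and 99. C57BL/6J 1 to 3 held 10, 10 and 12 counts, the tightest group for this gene. No nlsYAP5SA mouse overlapped with any other mouse, and mouse 3, at 1.21 CPM, was again the lowest of its group. The mean rose from 0.444 ± 0.229 to 3.27 ± 1.33 CPM (n = 5 each), a log2 fold change of 2.88 with a standard error of 0.40 (edgeR, adjusted p = 0.000497; exact permutation p = 0.00794). The study singled out Krt18 on these same libraries, so its direction here is not independent evidence. With the Y-linked level as a covariate the log2 fold change was 2.40 (adjusted p = 0.0116) and with the choroid plexus score 2.74 (adjusted p = 0.00343).

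Krt19, the smallest keratin, which lacks the tail domain of other keratins (chromosome 11, 100140810 to 100148665, minus strand), rose by the smallest fold of the 4 in edgeR. It had 21, 13, 13, 10 and 14 counts in control 1 to 5 and 55, 44, 40, 57 and 63 in nlsYAP5SA 1 to 5. It had 30, 21 and 10 counts in C57BL/6J 1 to 3. The nlsYAP5SA group showed no overlap with either of the others, and its spread was the narrowest relative to its mean among the keratins that rose. The mean rose from 0.601 ± 0.171 to 2.33 ± 0.461 CPM (n = 5 each), a log2 fold change of 1.96 with a standard error of 0.22 (edgeR, adjusted p = 0.000108; exact permutation p = 0.00794). The filter on low counts asked for 0.434 CPM, computed from the library totals without TMM factors, in at least 5 libraries. For Krt19 all 5 controls reached it, against 0 of 5 for Krt7, 0 of 5 for Krt8 and 2 of 5 for Krt18. The latter 3 passed the filter on low counts only through the group where they were high, so their passing and their difference are not separate facts.

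**Figure D1:**
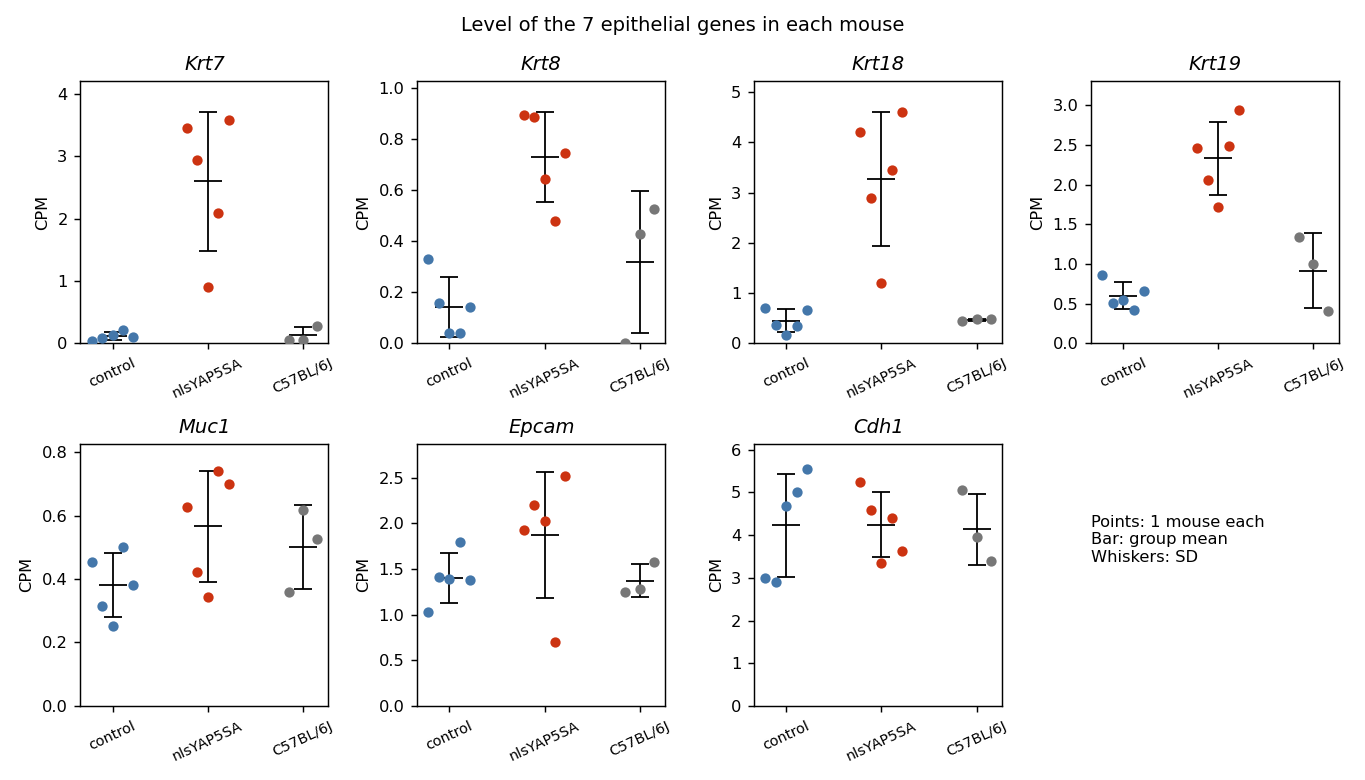
CPM (vertical axes, linear and starting at 0) of the 7 genes in every mouse, with group mean and SD, for control (blue, 5 mice), nlsYAP5SA (red, 5 mice) and C57BL/6J (grey, 3 mice). The red points of Krt7, Krt8, Krt18 and Krt19 lie above all blue points, whereas those of Muc1, Epcam and Cdh1 overlap with them.

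Muc1, Epcam and Cdh1 were not called in any of the 3 comparisons. Muc1 (chromosome 3, 89229057 to 89233381, plus strand) had 11, 8, 6, 12 and 8 counts in control 1 to 5, 14, 9, 8, 17 and 15 in nlsYAP5SA 1 to 5 and 8, 13 and 13 in C57BL/6J 1 to 3. The groups overlapped, with means of 0.380 ± 0.101 CPM in control and 0.566 ± 0.174 in nlsYAP5SA. The log2 fold change was 0.58 with a standard error of 0.29 (edgeR, unadjusted p = 0.0699, adjusted p = 0.247), and 1.96 standard errors each way, the interval given for all genes here, spanned 0.01 to 1.15. This interval makes no allowance for the few degrees of freedom and is narrower than the test's own. The exact permutation p was 0.0873.

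Epcam (chromosome 17, 87635979 to 87651129, plus strand) had 25, 36, 33, 43 and 29 counts in control 1 to 5 and 43, 47, 47, 16 and 54 in nlsYAP5SA 1 to 5. It had 28, 27 and 39 counts in C57BL/6J 1 to 3. nlsYAP5SA mouse 4 had the lowest count of all 13 mice, while the other mice of its group had the 4 highest CPM values. The log2 fold change was 0.43 with a standard error of 0.28 (adjusted p = 0.388) over all 5 mice, and 0.64 (adjusted p = 0.0403) without nlsYAP5SA mouse 4. The interval over all mice ran from -0.13 to 0.98.

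Cdh1 (chromosome 8, 106603351 to 106670246, plus strand) differed between the groups by less than the spread between mice. It had 73, 74, 111, 120 and 117 counts in control 1 to 5, 117, 98, 78, 101 and 78 in nlsYAP5SA 1 to 5 and 113, 83 and 84 in C57BL/6J 1 to 3. The means were 4.23 ± 1.21, 4.24 ± 0.758 and 4.13 ± 0.840 CPM. The log2 fold change of nlsYAP5SA against control was 0.02 with a standard error of 0.19 (adjusted p = 0.966), with an interval from -0.36 to 0.40.

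Against the C57BL/6J mice the keratin differences were of the same direction, with fewer calls. Of the 7 genes, 3 were called higher in nlsYAP5SA, beside 4.16% of the 16641 genes tested there, and 0 lower, beside 2.22%. All 3 passed the filter on low counts there only through the nlsYAP5SA mice, so their count is no support. These 3 were also the members whose nlsYAP5SA mice all lay above the C57BL/6J mice, as did 8.51% of all genes tested. The log2 fold changes were 4.24 for Krt7 (standard error 0.65, adjusted p = 0.00515), 2.77 for Krt18 (standard error 0.44, adjusted p = 0.00588) and 1.35 for Krt19 (standard error 0.34, adjusted p = 0.0436). All 3 calls were lost in an edgeR fit with the replicate number as a block (adjusted p from 0.118 to 0.217). Krt7 gave 5.64 without C57BL/6J mouse 3, the mouse with 7 counts. The Krt19 call was lost without any of nlsYAP5SA 1, 2, 4 and 5 or C57BL/6J 1 and 2 (adjusted p from 0.0507 to 0.108) and with the Y-linked covariate (adjusted p = 0.0786). Krt8 was at 1.16 with a standard error of 0.61 (adjusted p = 0.316), with an interval from -0.04 to 2.35, and ran from 0.60 without C57BL/6J mouse 1, the mouse with 0 counts, to 1.76 without C57BL/6J mouse 3. This comparison and the one with control share the nlsYAP5SA mice.

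C57BL/6J and control hemispheres were compared to see whether the transgene without Cre, or the litters, came with a difference in these genes. Of the 5 members tested in C57BL/6J against control, 0 were called by edgeR, 0 passed a threshold of 0.05 without adjustment and 0 were called by DESeq2. Of all 16546 genes, 0.169% were called by edgeR and 3.78% passed 0.05 without adjustment. Krt7 and Krt8 were dropped by the filter on low counts there. The log2 fold changes were 0.10 for Krt18, 0.60 for Krt19, 0.40 for Muc1, -0.02 for Epcam and -0.02 for Cdh1. The intervals ran from -0.74 to 0.94 for Krt18 and from -0.15 to 1.36 for Krt19. The exact permutation p for Krt7 was 0.893 and for Krt8 0.286, where 3 against 5 mice cannot give less than 0.0357.

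**Figure D2:**
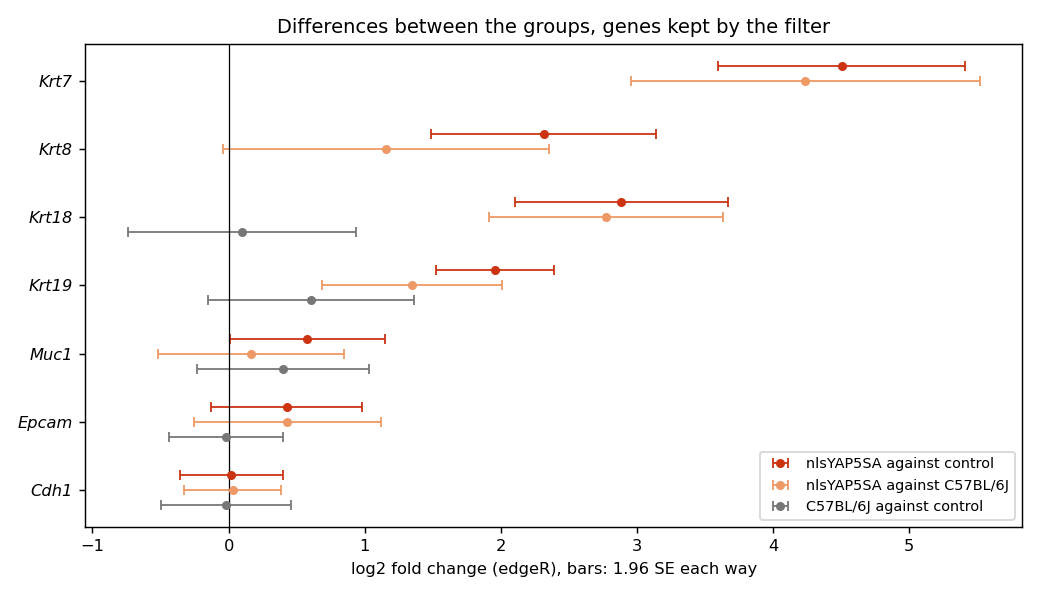
Log2 fold change (horizontal axis, edgeR) with bars of 1.96 standard errors each way for the genes that the filter kept, in nlsYAP5SA against control (red), nlsYAP5SA against C57BL/6J (orange) and C57BL/6J against control (grey). The red bars of the 4 keratins lie above 0 with centres from 1.96 to 4.50, and all bars of Epcam and Cdh1 span 0.

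Per kilobase of the longest protein-coding transcript, a scale on which levels can be compared between genes, the order of the genes changed. In control the mean levels fell from Cdh1 (0.956 CPM per kb) through Epcam (0.687), Krt19 (0.382), Krt18 (0.309), Muc1 (0.170) and Krt8 (0.0728) to Krt7 (0.0269). In nlsYAP5SA the order was Krt18 (2.28), Krt19 (1.48), Cdh1 (0.958), Epcam (0.918), Krt7 (0.634), Krt8 (0.373) and Muc1 (0.253). The means of Krt18 and Krt19 thus stood above Cdh1 and Epcam in nlsYAP5SA and below them in control. In both groups the ranges over mice of neighbouring genes in the order overlapped. The transcript lengths used, from 1437 bases for Krt18 to 4430 for Cdh1, are an annotation choice, since the isoforms were not resolved.

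Summed per kilobase, the type I chains Krt18 and Krt19 had 0.465 to 1.04 CPM per kb in control mice and 1.93 to 5.07 in nlsYAP5SA mice. The type II chains Krt7 and Krt8 had 0.0524 to 0.178 in control and 0.551 to 1.301 in nlsYAP5SA. The type II sum was below the type I sum in each of the 13 mice. Their ratio, type II over type I, was 0.108 to 0.174 in control, 0.190 to 0.353 in nlsYAP5SA and 0.00940 to 0.568 in C57BL/6J. In control mice this ratio rests on 1 to 5 counts of Krt7 and 1 to 8 of Krt8. It also depends on the 4094 bases used as the length of Krt7. Krt8 over Krt18 per kb was 0.0917 to 0.345 in control and 0.102 to 0.393 in nlsYAP5SA, with overlap.

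The other keratin genes were mostly at very low counts or not called. Krt8 and Krt18 are neighbours, with starts 23698 bases apart at the end of the keratin cluster of chromosome 15, and Krt7 starts 617137 bases before Krt18 in the same cluster. Of the 23 other keratin genes between Krt7 and Krt18, 5 had over 10 counts in at least 1 mouse. Of the 50 other keratins in the table, 9 passed the filter in nlsYAP5SA against control. Of these, 0 were called higher, beside 7.36% of all genes, and 1 was called lower, with a median log2 fold change of -0.03 beside -0.01 over all genes. The 1 called lower was Krt10, a keratin of the upper epidermis, at 6.99 ± 0.723 CPM in control and 5.45 ± 0.254 in nlsYAP5SA (log2 fold change -0.35, adjusted p = 0.0281). That call was lost without any of control 1 and 3 or nlsYAP5SA 1, 2, 3 and 5 (adjusted p up to 0.0652). It was also lost with no filter (0.0595), in a fit of all 13 samples (0.119) and with the choroid plexus (0.0585) or Y-linked covariate (0.172).

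Krt80, a type II keratin of many epithelia, had 0.355 ± 0.0844 CPM in control and 0.677 ± 0.289 in nlsYAP5SA, with overlap, and was not called (log2 fold change 0.93, standard error 0.34, adjusted p = 0.109), except without nlsYAP5SA mouse 3 (1.14, adjusted p = 0.0208) and without nlsYAP5SA 3 and 4 together (1.11, adjusted p = 0.0457). The log2 fold changes of the others were 0.04 for Krt1, 0.07 for Krt12, 0.15 for Krt73, -0.03 for Krt77, -0.10 for Krt222, -0.41 for Krt9 and -0.62 for Krt2, and none of these was called. Krt222, which codes for a keratin-like protein, had 43.0 ± 1.86 CPM in control and 39.7 ± 2.11 in nlsYAP5SA. The pseudogene Krt8-ps had 1.98 estimated counts in control mouse 2, the mouse in which Krt8 had a fractional count, and 0 in all others.

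**Figure D3:**
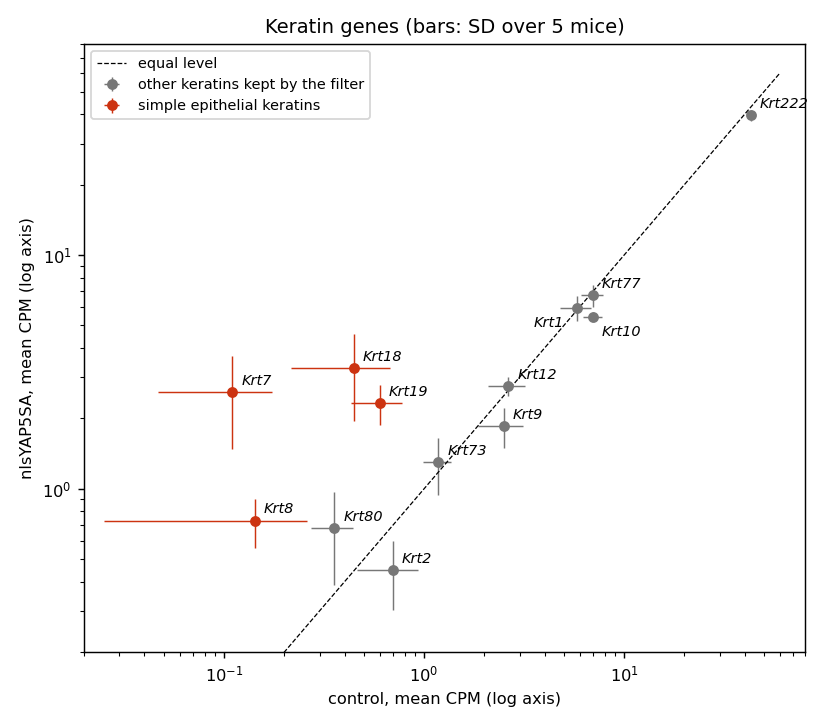
Mean CPM in nlsYAP5SA (vertical, log axis) against control (horizontal, log axis) for the 4 simple epithelial keratins (red) and the 9 other keratins kept by the filter (grey), with SD over 5 mice. The red points lie far above the dashed line of equal level, whereas most grey points lie close to it, with Krt80 above it and Krt2 below it.

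Upstream sequence was compared for the neighbouring genes that rose, Krt8 and Krt18, and for Muc1, which was not called. RefSeq promoters (GRCm38.p6) from 250 bases before to 50 bases after the start were found for 5 of the 7 genes, Krt7, Krt8, Krt18, Muc1 and Epcam. They were searched on both strands for GGAATG, the core bound by the TEAD partners of YAP1, and for TGANTCA, the AP-1 site. A GGAATG can share its last letters with the start of a TGANTCA. Of all 32851 promoters, 14.7% held GGAATG and 7.81% held TGANTCA. In the Muc1 promoter GGAATG occurred at position -132 from the start, on the plus strand. Neither motif occurred in the windows of Krt7, Krt8, Krt18 and Epcam, which says only that these letters are absent from 300 bases. Only bases outside the annotated gene are shown, in gene direction, with GGAATG in capitals: chr15:102004483-102004592, minus strand, for Krt8; chr15:102027966-102028179, plus strand, for Krt18; and chr3:89228806-89229055, plus strand, for Muc1.
Krt8: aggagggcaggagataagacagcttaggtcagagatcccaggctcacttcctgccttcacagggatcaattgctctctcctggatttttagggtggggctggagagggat
Krt18: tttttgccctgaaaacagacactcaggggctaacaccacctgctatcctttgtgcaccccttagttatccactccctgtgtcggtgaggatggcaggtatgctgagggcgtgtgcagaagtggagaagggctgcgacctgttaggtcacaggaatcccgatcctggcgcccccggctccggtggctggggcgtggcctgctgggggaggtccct
Muc1: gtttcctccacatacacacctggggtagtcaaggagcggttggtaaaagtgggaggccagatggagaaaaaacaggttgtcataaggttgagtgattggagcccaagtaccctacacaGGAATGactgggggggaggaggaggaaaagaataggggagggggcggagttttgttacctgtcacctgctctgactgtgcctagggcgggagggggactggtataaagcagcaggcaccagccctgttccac

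Some other epithelial genes rose with the keratins. Of 40 such genes listed beside the 7, 26 were tested, 8 were called higher and 0 lower in nlsYAP5SA against control. Their median log2 fold change was 0.14 beside -0.01 over all genes, of which 7.36% were called higher. Lgals3, which codes for the lectin galectin-3 and is also made by macrophages and microglia, rose from 0.665 ± 0.230 to 3.85 ± 1.13 CPM (log2 fold change 2.53, adjusted p = 8.94e-05). Cdh3, P-cadherin, had 4 to 22 counts in control mice and passed the filter on low counts only through the nlsYAP5SA mice. It rose from 0.571 ± 0.290 to 1.73 ± 0.363 CPM (1.61, adjusted p = 0.00649), a call that was lost with the Y-linked covariate (adjusted p = 0.118). With that covariate, 4 genes of the list were called, and 7 or 8 in the other alternatives.

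Others that rose were Spint1, a membrane protease inhibitor, at 1.57 (adjusted p = 6.42e-05), the desmosomal genes Dsg2 at 1.37 (0.00142) and Dsp at 0.56 (0.0493), and the tight junction genes Cldn1 at 0.78 (0.00612) and F11r at 0.49 (0.0106) on the log2 scale. The Dsp call was lost in 15 of 20 alternatives (adjusted p from 0.0533 to 0.193), among them leaving out any of control 1, 2, 4 and 5 or nlsYAP5SA 1, 2, 4 and 5. Cldn1 lost its call with the choroid plexus (0.0730) or Y-linked covariate (0.176), and F11r with the latter (0.234). The 18 tested genes that were not called included the epithelial regulators Grhl1 (-0.05), Ovol2 (0.15) and Klf5 (-0.10), the tight junction gene Ocln (0.09) and St14, the protease that Spint1 inhibits (0.04). The standard errors of these 5 genes were 0.09 to 0.25.

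**Figure D4:**
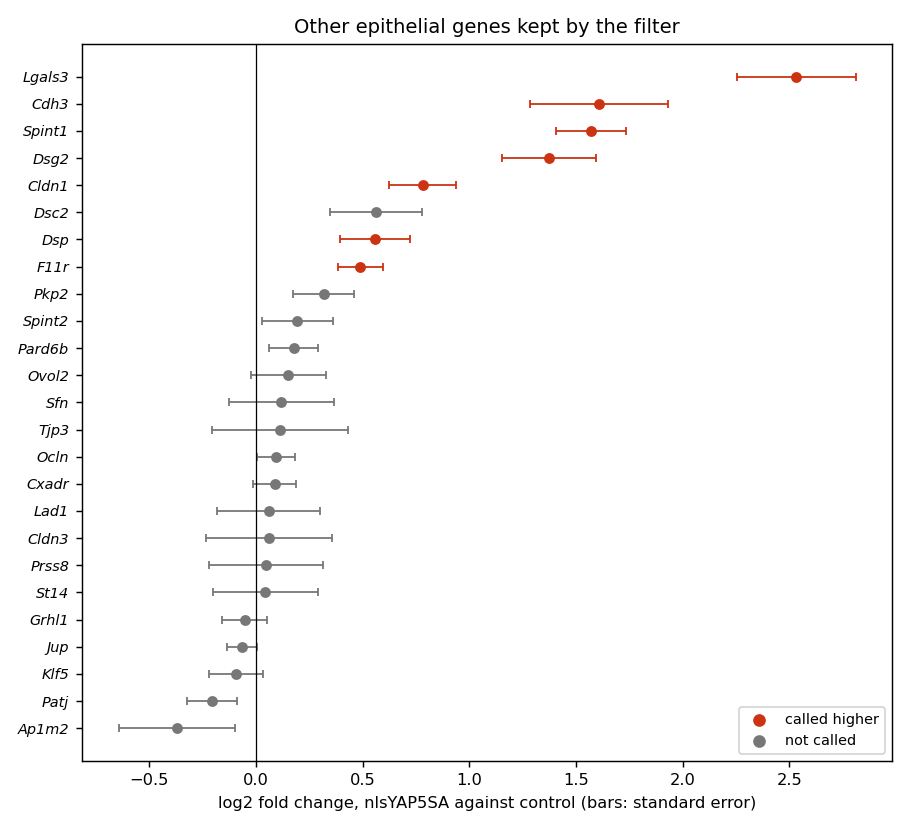
Log2 fold change in nlsYAP5SA against control (horizontal axis) with standard error for 25 of the 26 listed epithelial genes kept by the filter, called higher in red and not called in grey. The 7 red genes shown run from F11r at 0.49 to Lgals3 at 2.53, and the lowest point is Ap1m2 at -0.37.

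The filaments and linker proteins with which keratins share the cell differed by type. Of 13 tested filament partners, 3 were called higher and 1 lower, beside 7.36% of all genes called higher and 10.8% called in either direction. Gfap, the astrocyte filament gene, rose from 182 ± 7.88 to 750 ± 74.3 CPM (log2 fold change 2.06, adjusted p = 1.34e-08), and Vim, vimentin, rose from 52.2 ± 4.28 to 131 ± 16.7 CPM (1.34, adjusted p = 2.83e-06). Ppl, which codes for periplakin, a linker between keratin filaments and desmosomes, rose from 0.314 ± 0.107 to 1.23 ± 0.189 CPM (1.97, adjusted p = 0.00024). Ppl had 5 to 11 counts in control mice and 24 to 32 in nlsYAP5SA mice, and passed the filter on low counts only through the latter. Ina, the neuronal filament gene for alpha-internexin, fell by 0.21 on the log2 scale (adjusted p = 0.0221), a call lost with library size alone (0.0780), with the Y-linked covariate (0.205), without any of control 4 or nlsYAP5SA 2 and 5 (up to 0.0677) and without nlsYAP5SA 3 and 4 together (0.0625). Plec (0.08) and Dst (0.02), the broad linkers plectin and dystonin, were not called.

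Around E-cadherin, 2 of 10 tested genes of the cadherin-catenin complex were called higher and 0 lower, beside 7.36% of all genes called higher. Cdh2, N-cadherin, the main cadherin of neural tissue, rose from 159 ± 8.58 to 182 ± 6.93 CPM (log2 fold change 0.21, adjusted p = 0.0185), and Ctnna1, alpha-E-catenin, from 54.1 ± 4.81 to 66.8 ± 6.52 CPM (0.32, adjusted p = 0.0204). Cdh2 lost its call without any of control 4 or nlsYAP5SA 2 and 5 and Ctnna1 without any of control 2 or nlsYAP5SA 2 and 5, with adjusted p up to 0.056 and 0.0634. Cdh2 also lost it with no filter (0.0508), in the fit of all 13 samples (0.106) and with the Y-linked covariate (0.240), and Ctnna1 with the choroid plexus (0.0647) or Y-linked covariate (0.307). Of 6 transcription factors that repress Cdh1, Snai1 rose, from 0.529 ± 0.0839 to 0.967 ± 0.262 CPM (0.87, adjusted p = 0.0298). That call was lost without any of control 2, 3, 4 and 5 or nlsYAP5SA 1, 4 and 5 (adjusted p up to 0.0732), with DESeq2 without (0.0568) or with a prior (0.0539), with no filter (0.0711) and with the Y-linked covariate (0.0974). Among other mucins, 3 of 12 were tested and not called, Muc15 at -0.20, Muc3a at -0.33 and Muc6 at -0.51.

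Transcripts of the choroid plexus, an epithelial layer named above, varied widely within each group, and levels of the members were set beside those of Ttr. nlsYAP5SA mouse 4 had 18 counts of Ttr, the lowest of all 13 mice, with 79 counts of Krt18, 48 of Krt7 and 11 of Krt8, the last the lowest of its group. In the 8 control and C57BL/6J mice, Ttr ran from 0.827 to 240.2 CPM. Krt18 was at 0.169, 0.335, 0.354 and 0.447 CPM in the 4 of these mice with the lowest Ttr and at 0.476, 0.486, 0.664 and 0.700 in the others. C57BL/6J mice 1 and 2, at 0.447 and 0.476 CPM, both had 10 counts, so the lack of overlap rests on library scaling. Krt8 was at 0, 0.0418, 0.0422 and 0.157 CPM in the 4 mice with the lowest Ttr and at 0.142, 0.329, 0.428 and 0.527 in the others, with overlap. All 8 mice lay below every nlsYAP5SA mouse for Krt18. Epcam had its lowest value, 0.697 CPM, in nlsYAP5SA mouse 4. All of these are levels in single libraries and were not tested.

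Of 12 choroid plexus markers, all of them tested, 12 had a higher mean in nlsYAP5SA than in control, with a median log2 fold change of 0.69 beside -0.01 over all genes. In C57BL/6J against control 12 also had a higher mean (median 0.41), and in nlsYAP5SA against C57BL/6J 9 did (median 0.13). Against control, 2 of the 12 were called higher in nlsYAP5SA, beside 7.36% of all genes. These were Folr1 (log2 fold change 2.203, adjusted p = 0.0133) and Cldn2 (1.82, adjusted p = 0.0186), while Ttr was at 1.04 with a standard error of 1.296 (adjusted p = 0.674). Folr1 lost its call with the Y-linked covariate (0.151), and Cldn2 with either covariate (0.0772 and 0.461) and without control 2 (0.0521) or nlsYAP5SA 5 (0.0551). The summed list ran from 19.2 to 251 CPM in control, from 22.1 to 330.2 in nlsYAP5SA and from 18.6 to 285 in C57BL/6J, and no marker was at 0 in all mice. With the choroid plexus score as a covariate, all 4 keratins were called, with log2 fold changes of 4.40 for Krt7, 1.797 for Krt8, 2.74 for Krt18 and 1.89 for Krt19.

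**Figure D5:**
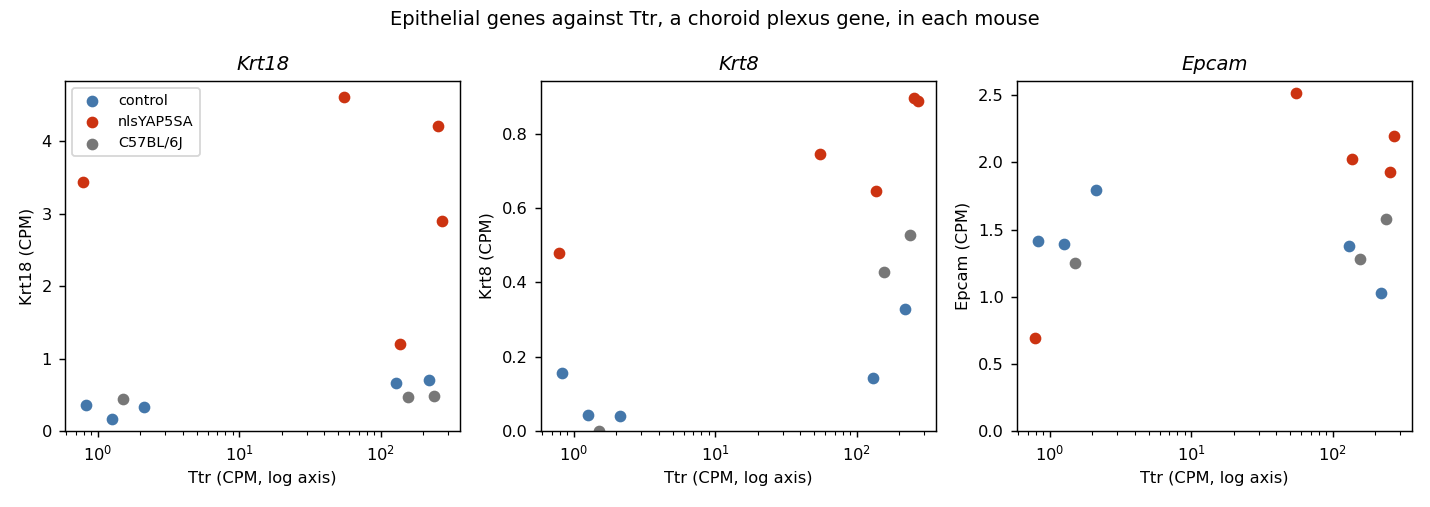
CPM of Krt18, Krt8 and Epcam (vertical axes, linear) against CPM of Ttr (horizontal, log axis) in each of the 13 mice, coloured by group. For Krt18 the red point at the lowest Ttr, nlsYAP5SA mouse 4 at 3.44 CPM, lies among the other red points, and for Epcam the same mouse is the lowest of all at 0.697 CPM.

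Markers of other cell types differed between the groups to different degrees. Of all genes tested against control, 7.36% were called higher and 10.8% in either direction. Of 12 ciliated ependymal markers, Foxj1 (log2 fold change 0.78) and Spag17 (0.66) were called higher. Foxj1 lost its call with the choroid plexus (adjusted p = 0.0520) or Y-linked covariate (0.120), and Spag17 in 10 of 20 alternatives. Of the 12, 11 had a higher mean than in control, with a median log2 fold change of 0.56 beside -0.01 over all genes. The summed list ran from 20.7 to 40.2 CPM in control, 36.5 to 41.7 in nlsYAP5SA and 28.9 to 30.9 in C57BL/6J. Of 12 meningeal markers, Aldh1a2 was called higher (0.84) and Lum lower (-0.83), with sums of 104 to 152, 117 to 167 and 129 to 156 CPM. Of 6 microglial markers 5 were called higher, with sums of 277 to 346 CPM in control, 389 to 510.4 in nlsYAP5SA and 294 to 339 in C57BL/6J, and of 6 astrocyte markers 3 were called higher. Their part in the keratin result was not tested. Of 6 endothelial markers, Cldn5 and Cdh5 were called lower, and the 8 neuronal markers, with log2 fold changes from -0.16 to 0.09, were not called. Pituitary markers were low, with 3 of 9 at 3 counts or fewer in every mouse and sums of 1.25 to 3.25 CPM. Of 10 skin and hair markers, 5 were tested, Perp was called higher (0.45) and Krt10 lower, with sums of 22.9 to 29.6 CPM in control and 23.5 to 29.3 in nlsYAP5SA. Of the 16 calls in the ependymal, meningeal, microglial, astrocyte, endothelial and skin lists, 6 were kept in all 20 alternatives, among them those of Aldh1a2 and Cldn5, and 10 were lost in at least 1.

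The genes whose levels over the 13 mice were most like those of each called keratin were named by Pearson's r of log2 CPM among 14854 genes, a description only, since the mice fall into groups. For Krt7 these were Il6ra (0.984), Col8a1 (0.980) and Lox (0.976), for Krt18 Gpc3 (0.971), Unc93b1 (0.971) and Ggta1 (0.967), and for Krt19 Tpm1 (0.971), Scpep1 (0.969) and Gpc3 (0.960). For Krt8 they were Folr1 (0.953), a choroid plexus marker, 1500015O10Rik (0.951) and Scara5 (0.938). Lox, the crosslinking enzyme of collagen and elastin, had 6.09 ± 1.37 CPM in control and 44.7 ± 11.0 in nlsYAP5SA. Tpm1, tropomyosin 1, which binds actin filaments, had 156 ± 3.07 and 196 ± 5.78.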

How the data were processed

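Right hemispheres of 13 mice (5 control, 5 nlsYAP5SA, 3 C57BL/6J) were sequenced as mRNA libraries. The authors trimmed reads with CutAdapt 1.5, mapped them to GRCm38 release 86 with STAR and deposited RSEM 1.3.0 estimated counts per gene (expected counts, not normalised). The submitters' processing notes and the methods give different STAR versions, and the strand setting is not given in the sources used here. Estimated counts were rounded to whole numbers, filtered with filterByExpr (minimum count 10, minimum total 15), scaled by TMM and tested with edgeR 4.0.16 (quasi-likelihood F test, two-sided) on the groups compared, with p-values adjusted by Benjamini-Hochberg across every tested gene and calls at 0.05 or less. CPM used TMM factors over all 13 samples. Exact two-sided permutation tests compared mean CPM. Likeness used log2(CPM + 0.5) over genes with a mean CPM of at least 1.

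Totals were 20871566 to 25524349 counts per mouse, and limits at 0 counts (3 counts) cover counting error only. Intervals are 1.96 standard errors of the fit each way, which carry the spread between mice. Groups came from the labels; litter membership of each mouse was not given, and p-values measure the spread between mice. Within groups, replicates differed beyond counting noise (chi-square per degree of freedom at least 5.77 over 23 pairs). Of 48795 identifiers, 446 had no name, with 0.0649% of counts. Positions and lengths came from GENCODE M21 (GRCm38), and promoters from RefSeq (GRCm38.p6). Krt7 and Krt8 overlap genes on the other strand that were not analysed here. The fits were tested on simulated counts.

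The members and gene lists were chosen with earlier results of these data known. Named genes were the 7 members, other keratins kept by the filter, up to 3 called genes with the largest change of each related list (otherwise the 2 most abundant), the genes most alike each called keratin, Yap1, Neurod6 and keratin pseudogenes; further list genes were named after their values were seen, and 1 called gene of the epithelial list is not reported here. Alternatives were DESeq2 1.42.0 with and without a prior, its size factors, library size alone, no filter, a fit of all 13 samples, a replicate block, choroid plexus and Y-linked covariates, and leaving out each mouse.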

Additional observations from a re-analysis of the deposited data

Results flagged for a closer look

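Groups of 5 mice were examined for a mouse far from the others, and the 3 C57BL/6J mice were not. Among 93 such groups for the 7 genes and the others that the rule for named genes picked, 4 had a mouse far from the others, where chance gives about 1 in 20. In nlsYAP5SA mouse 4 the neuronal gene Snap25 was lowest at 678 CPM, with the nearest mouse at 793, and this was the mouse with the lowest Ttr and Epcam. In nlsYAP5SA mouse 3, the mouse with the lowest Krt7, Krt18 and Krt19, Vim was lowest at 102 CPM, with the nearest at 133 and the highest at 142. Krt8-ps had 0.0787 CPM in control mouse 2 and 0 in the other controls. Krt80 was highest in control mouse 4 at 0.502 CPM, with the nearest at 0.337. None of the 4 was a group of the 7 genes.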

How the results depend on the processing

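Against control, Krt7, Krt18 and Krt19 kept direction and call in each of 20 alternatives, of which leaving out nlsYAP5SA 3 and 4 together was chosen after seeing the data, and Krt8 lost its call in 1, the Y-linked covariate. DESeq2 with a prior, which shrinks fold changes, gave smaller values and another order: 1.33 for Krt7, 0.67 for Krt8, 1.09 for Krt18 and 1.15 for Krt19. The 1761 genes called there became 1078 with the choroid plexus score and 542 with the Y-linked level as a covariate. In C57BL/6J against control, 28 genes became 59 with DESeq2 without a prior, 53 with a prior and 44 in a fit of all 13 samples. Leaving out 1 mouse gave 4 to 5 members and 1210 to 1891 genes against control, 0 members and 19 to 27 genes in C57BL/6J against control, and 2 to 3 members and 401 to 1757 genes in nlsYAP5SA against C57BL/6J (1061 with all mice). These last were 636, 645 and 509 without nlsYAP5SA 1, 2 and 5 and 401, 581 and 1757 without C57BL/6J 1, 2 and 3. The exact permutation test gave 4 to 5 members with p under 0.05 against control, and without a C57BL/6J mouse it cannot reach 0.05, so no value was given.

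Same-numbered mice did not deviate together throughout, so the numbers were not taken to pair mice. The correlations were -0.325 to 0.331 between nlsYAP5SA and control (2 of 5 above 0.1, 1 closest to its own number), -0.0261 to 0.504 between C57BL/6J and control (2 of 3 above 0.1, 2 closest to their own number) and -0.284 to 0.0800 between nlsYAP5SA and C57BL/6J (0 and 0 of 3). With a replicate block, 4 members were called against control, 15 genes in C57BL/6J against control, and 47 genes and 0 members in nlsYAP5SA against C57BL/6J, where Krt7 was at 3.99 (adjusted p = 0.174), Krt18 at 2.40 (0.118), Krt19 at 1.26 (0.217) and Muc1 at -0.12. In C57BL/6J against control the block gave 0.12 for Epcam and 0.25 for Cdh1. Against control, the block also ended the calls of Yap1 (adjusted p = 0.115), Krt10 (0.0835), Snai1 (0.0768), Cdh2 (0.0683), Ctnna1 (0.0525), Ina (0.0654), Dsp (0.0898), Spag17 (0.0827), Slc1a3 (0.0729), Gja1 (0.0749) and Aldoc (0.0963).

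The remaining changes of sign were in values that were not called, on the log2 scale, and the cause was not tested. Against control, the choroid plexus score gave -0.0069 for Cdh1, -0.016 for Krt1 and -0.027 for Krt73, and the Y-linked level -0.0071 for Epcam, -0.092 for Cdh1 and 0.033 for Krt77. In C57BL/6J against control, the choroid plexus score gave -0.095 for Krt18, 0.024 for Epcam and 0.041 for Cdh1, and the Y-linked level 0.028 for Epcam and 0.012 for Cdh1. In nlsYAP5SA against C57BL/6J, the Y-linked level gave -0.0056 for Cdh1. Leaving out 1 mouse gave -0.090 to 0.13 for Cdh1, -0.024 to 0.14 for Krt1 and -0.097 to 0.039 for Krt77 against control. It gave -0.11 to 0.33 for Krt18, -0.15 to 0.085 for Epcam and -0.19 to 0.093 for Cdh1 in C57BL/6J against control, and -0.020 to 0.36 for Muc1 and -0.097 to 0.20 for Cdh1 in nlsYAP5SA against C57BL/6J.

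Counts below 100 per library limit the precision of Krt7, Krt8, Krt18 and Krt19, and the Y-linked level differed between the groups, so that its part in the genotype difference cannot be fully told apart; litters were not given.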

Other observations

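Several other keratins and a mucin were lower in nlsYAP5SA than in the C57BL/6J mice. Of 10 other keratins tested in that comparison, 0 were called higher and 3 lower: Krt12, the corneal keratin (log2 fold change -0.67, adjusted p = 0.0187), Krt9, a keratin of palm and sole skin (-0.91, adjusted p = 0.046), and Krt222 (-0.28, adjusted p = 0.0387). Of all genes tested there, 2.22% were called lower. Of 17 alternatives, 3 ended the call of Krt12, among them leaving out nlsYAP5SA 5 (adjusted p = 0.0592) or C57BL/6J 2 (0.0783), 10 that of Krt9 and 12 that of Krt222, among them leaving out any of nlsYAP5SA 1, 2, 4 and 5 or C57BL/6J 1 and 2 for both genes, nlsYAP5SA 3 for Krt9 and C57BL/6J 3 for Krt222. Their means in C57BL/6J, 4.35 ± 0.412, 3.46 ± 0.999 and 48.0 ± 2.64 CPM (n = 3), were also above those of control at 2.64 ± 0.559, 2.497 ± 0.641 and 43.0 ± 1.86 (n = 5), and none of these keratins was called in C57BL/6J against control. Muc6, a secreted gel-forming mucin, was at 1.46 ± 0.366 CPM in C57BL/6J and 0.693 ± 0.157 in nlsYAP5SA (-1.07, adjusted p = 0.0433), a call lost in 11 of 17 alternatives, among them leaving out any mouse but C57BL/6J 3.

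Of the related genes that were higher against control, Lgals3 (2.49), Spint1 (1.41), Cdh3 (1.38), Gfap (2.02), Vim (1.37) and Ppl (1.69) were also called higher against C57BL/6J on the log2 scale, whereas Cdh2, Ctnna1, Snai1, Dsg2, Dsp, Cldn1 and F11r were not called there. Lgals3 and Spint1 each lost that call in 1 of 17 alternatives, the replicate block (adjusted p = 0.0717 and 0.0961). Cdh3 lost that call in 9 of 17 alternatives (without any of nlsYAP5SA 1, 2, 3 and 5 or C57BL/6J 1 and 2, among others) and Ppl in 7 (nlsYAP5SA 1, 2 and 5 or C57BL/6J 1 and 2, among others), while Gfap and Vim kept theirs. These comparisons share the nlsYAP5SA mice.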
